A study of Mus musculus with 20 samples.

Results

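The 10 genes described here encode the Fos proteins (Fos, Fosb, Fosl1, Fosl2), the Jun proteins (Jun, Junb, Jund) and 3 further fast-responding proteins (Atf3, Egr1, Ier3). They were found by symbol among the 22090 genes of the count table, and all 10 had a row. RNA-seq was made from pieces of back skin of 8 female hairless SKH-1 mice, 7 months old when they entered the study, of which 4 were left without ultraviolet and 4 were irradiated with simulated sunlight until cSCC formed. There were 8 samples of normal skin (NS), 8 of actinic keratosis (AK) and 4 of cutaneous squamous cell carcinoma (cSCC). Each mouse gave 1 NS, so NS pools unirradiated skin with skin of the irradiated mice, and the labels do not say which NS is which. All AK and cSCC came from the 4 irradiated mice, and the study's pathology records the AK as papillomas. The tests treat the 8 AK as separate samples although they stand for 4 mice. The pieces hold all layers and cell types of the skin, so more cells of a type and more RNA per cell cannot be told apart.

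AP-1 is a dimer that binds DNA through a basic leucine zipper. Jun proteins pair with each other or with Fos proteins, while Fos proteins need a Jun partner. Growth factors, ultraviolet light and wounding switch on Fos, Fosb, Jun, Junb, Egr1, Atf3 and Ier3 quickly through MAP kinases, and most of these transcripts are short-lived. Fosl1 and Fosl2 encode Fra-1 and Fra-2, which lack the strong transactivation region of Fos and are usually induced later. In the epidermis AP-1 acts on proliferation, differentiation and responses to ultraviolet, and in mouse skin tumors Fos is known for its part in malignant conversion.

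The starts of 3 of the genes are shown because they differ in outcome. Fos did not separate the groups, and Junb and Ier3 were upregulated in cSCC. Of the 10 genes, 8 had an entry in the RefSeq promoter table (GRCm38.p6). The bases before the RefSeq start are written 5′ to 3′ in the direction of the gene, at chr12:85473640-85473889 for Fos (plus strand), chr8:84978749-84978998 for Junb (minus strand) and chr17:35821463-35821683 for Ier3 (plus strand). The window ends directly before the GENCODE gene for Fos and Ier3 and 30 bases further upstream for Junb. Capitals mark the motif matches described below.
Fos: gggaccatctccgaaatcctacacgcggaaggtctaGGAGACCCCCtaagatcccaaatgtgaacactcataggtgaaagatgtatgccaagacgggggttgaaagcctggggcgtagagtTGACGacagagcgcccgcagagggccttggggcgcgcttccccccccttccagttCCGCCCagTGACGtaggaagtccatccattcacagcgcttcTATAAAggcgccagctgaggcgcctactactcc
Junb: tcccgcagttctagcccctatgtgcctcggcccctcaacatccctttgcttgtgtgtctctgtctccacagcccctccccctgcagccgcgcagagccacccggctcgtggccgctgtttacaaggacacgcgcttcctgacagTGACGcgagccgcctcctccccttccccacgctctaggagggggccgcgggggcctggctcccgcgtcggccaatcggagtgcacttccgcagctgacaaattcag
Ier3: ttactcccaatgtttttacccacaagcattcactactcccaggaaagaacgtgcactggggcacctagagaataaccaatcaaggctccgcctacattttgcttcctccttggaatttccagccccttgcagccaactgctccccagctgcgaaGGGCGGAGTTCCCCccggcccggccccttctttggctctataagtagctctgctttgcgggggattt

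TGACG, the core of the cyclic AMP response element, was found 2 times in the Fos window and 1 time in the Junb window. Both strands were searched, and 17.8% of 32851 promoter windows of 250 bases held this motif. Fos also held GGGCGG on the other strand, a TATAAA box and an NF-kB match, motifs present in 32.7%, 12.4% and 7.25% of the windows. In Ier3 a GGGCGG match overlapped an NF-kB match, and the capitals cover both. The AP-1 motif TGANTCA (6.75% of windows) and the CArG box (1.47%) had no match in the windows of the 8 genes, which says only that these letters are not in these bases. Among the windows not printed, that of Jund ends 1210 bases before the annotated start of the gene, that of Fosl2 lies wholly in an exon and that of Atf3 lies at a start inside the gene.

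Sequencing depth ran from 1624325 to 6295575 counts per sample in NS, from 867219 to 14055206 in AK and from 775750 to 7095102 in cSCC. Levels are in CPM, a sample's counts divided by its library size on a fixed scale, with TMM factors over all 20 samples, and 3 counts equal between 0.225 CPM in AK 10 and 3.78 CPM in AK 12. Samples are named by group and label number. Of the 4 cSCC, 3 stood apart from the rest. In cSCC 18 haemoglobin genes took 46.8% of counts. In cSCC 20 the 8 lung epithelium markers summed to 36101 CPM, against 158 to 235 CPM in NS and 125 to 299 CPM in AK, with surfactant gene Sftpc at 22389 CPM. In cSCC 21 the 8 heart muscle markers summed to 55249 CPM, against 8.30 to 42.0 CPM in NS and 12.7 to 73.2 CPM in AK, with Actc1 at 15454 CPM and Myl7 at 0. The 8 keratinocyte markers were found in every group, summing to 6868 to 19112 CPM in NS, 9736 to 17237 CPM in AK and 3814 to 18385 CPM in cSCC, with the lowest sums of cSCC in 20 and 21. Values without cSCC 20 and 21 are given beside the results of Fosl1, Fosl2, Junb and Ier3 and of most lists. They are not given for Fosb, Egr1 and Atf3.

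The comparisons asked how the skin changes between NS, AK and cSCC. A gene was called a DEG when edgeR's quasi-likelihood test gave a Benjamini-Hochberg adjusted p-value under 0.05 over all genes tested and the fold change was above 1.5 or below 0.67. Every adjusted p below is of this test unless another is named.

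Fosl1, Junb and Ier3 were upregulated and Fosl2 was downregulated in cSCC compared with NS. Of 9 genes tested, 3 were higher and 1 was lower, while 11.7% of all 12097 genes tested were called higher and 7.65% lower. In cSCC compared with AK, 4 of 9 were higher (Fosl1, Junb, Jund and Ier3) and 1 was lower (Fosl2), against 16% and 8.34% of 12032 genes. In AK compared with NS edgeR called none of the 8 genes tested, where it called 2.26% of 11677 genes higher and 2.38% lower. Of the 8, 2 had an unadjusted edgeR p under 0.05 (Fosl2 and Jund), and the share over all genes at that threshold was not computed. DESeq2 called 2 (Fos and Jund) and voom none, where DESeq2 called 1049 and voom 1043 of the 11677 genes. The 2 comparisons with cSCC share the same 4 cSCC samples. Fosl1 passed the filter on low counts in these 2 comparisons only. The median log2 fold change of the genes tested was 0.74 in cSCC compared with NS and 1.11 compared with AK, beside 0.14 and 0.17 over all genes. Scaling by library size alone moved those medians over all genes to −0.17 and −0.09, and the share of higher genes among all DEGs from 60.4% to 31.9% and from 65.8% to 43.0%. The same 4 and 5 of the 10 genes were called under that scaling.

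**Figure D1:**
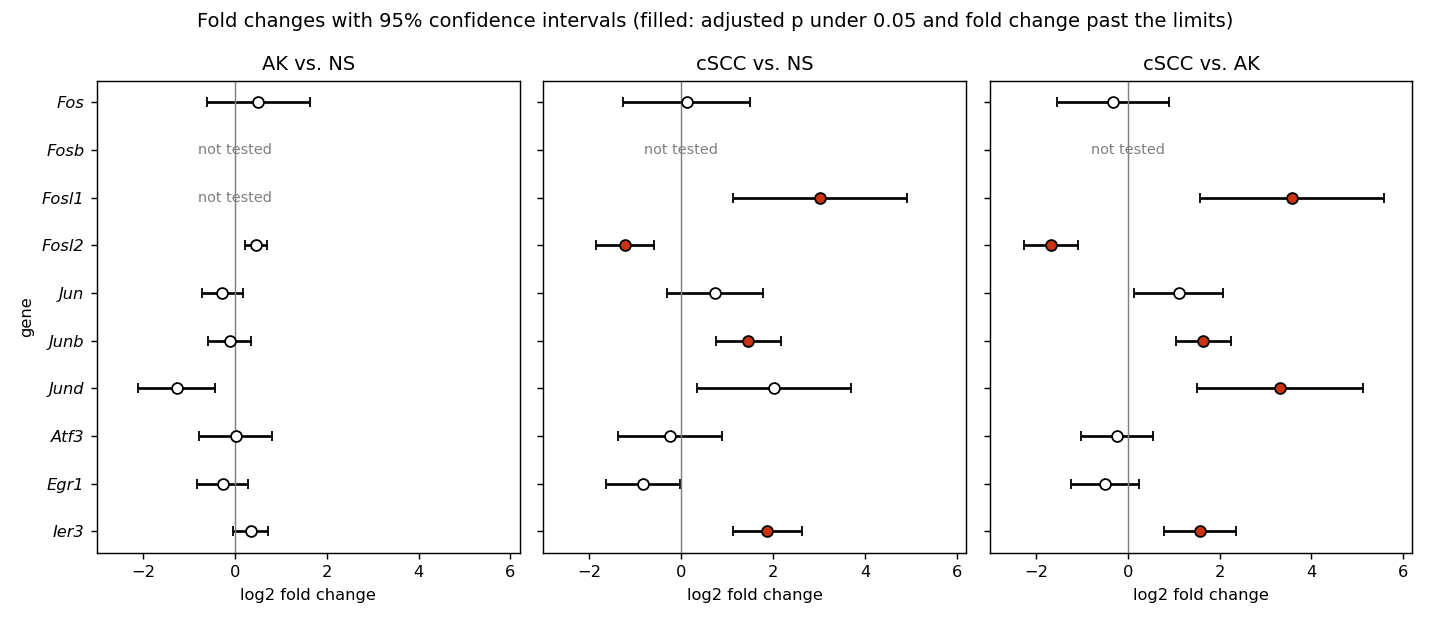
Log2 fold change (x axis) of each gene (y axis) for the 3 pairs of groups, with bars for the 95% confidence interval and filled points for called genes. No gene was called in AK vs. NS, 4 were called in cSCC vs. NS and 5 in cSCC vs. AK, and Fosl2 is the called gene to the left of 0 in both.

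Fosl2 (Fra-2; chr5:32135801-32157842, plus strand) was the Fos gene with the smallest SD relative to its mean in each group. It lay at 97.3 to 145 CPM in NS (median 121), 139 to 208 CPM in AK (median 168) and at 63.2, 48.8, 69.4 and 21.2 CPM in cSCC 18, 19, 20 and 21. All 4 cSCC lay below every NS and every AK. The log2 fold change was −1.23 ± 0.29 (SE) in cSCC compared with NS (adjusted p = 0.0119) and −1.67 ± 0.28 compared with AK (adjusted p = 0.00248). With cSCC 20 and 21 left out the values were −1.10 (adjusted p = 0.0163) and −1.55 (adjusted p = 0.00225). Fosl2 was called in both comparisons under every alternative run.

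In AK the mean level of Fosl2 was higher than in NS, without a call. Of 8 AK, 7 lay above all NS, and the mean was 171 ± 20.7 CPM (SD, n = 8) compared with 122 ± 15.8 CPM (SD, n = 8). The log2 fold change of 0.47 ± 0.12 (SE; adjusted p = 0.0288) is a fold change of 1.38, under the limit of 1.5, so the gene was not called. Library size scaling gave an adjusted p of 0.0708, no filter on low counts 0.0511 and the fit of all 20 samples 0.24. Leaving out NS 1, NS 2, NS 4, AK 13, AK 15 or AK 16 gave an adjusted p between 0.0517 and 0.0627.

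Fosl1 (Fra-1; chr19:5447547-5455946, plus strand) was scarce in NS and AK. It lay between 0 and 9.13 CPM in NS (median 1.58) and between 0 and 4.31 CPM in AK (median 0.417), with 3 of 8 NS and 5 of 8 AK under 3 counts. In cSCC 18, 19, 20 and 21 it lay at 1.39, 44.8, 14.8 and 15.2 CPM. The last 3 were above all NS and AK, whereas cSCC 18 held 2 counts. The filter on low counts kept Fosl1 only in the comparisons with cSCC, the group where it was high. Its calls are thus not independent of that filter, and it was not tested in AK compared with NS. Its log2 fold change was 3.02 ± 0.89 (SE) compared with NS (adjusted p = 0.0295) and 3.58 ± 0.93 compared with AK (adjusted p = 0.0146). Without cSCC 19 both calls were lost (2.17, adjusted p = 0.149, and 2.76, adjusted p = 0.07). The call compared with NS was also lost without NS 5 (2.89, adjusted p = 0.0549) and without cSCC 20 and 21 (3.29, adjusted p = 0.0597), and the call compared with AK stayed without those 2 samples (3.80, adjusted p = 0.0319). Ccdc85b overlaps Fosl1 on the opposite strand, and whether counting used strand is not stated in the sources used here.

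Fos (chr12:85473890-85477273, plus strand), the founding member of the family, did not separate the groups. Its lowest, median and highest levels were 18.7, 30.3 and 215 CPM in NS and 21.4, 50.6 and 259 CPM in AK, and cSCC 18, 19, 20 and 21 lay at 39.6, 106, 34.1 and 31.4 CPM. In each group 1 sample was far above the others, NS 6, AK 10 and cSCC 19. The log2 fold changes were 0.51 (95% confidence interval −0.61 to 1.64) in AK compared with NS, 0.12 (−1.26 to 1.49) in cSCC compared with NS and −0.32 (−1.53 to 0.90) in cSCC compared with AK, with adjusted p of 0.584, 0.923 and 0.719. These intervals are wide and leave changes of over 1.5-fold in both directions. DESeq2 called Fos higher in AK compared with NS (0.61, adjusted p = 0.0322) and in cSCC compared with NS (0.96, adjusted p = 0.0393). Without NS 6 and AK 10 the edgeR value for AK compared with NS was 0.70 (adjusted p = 0.062). Without NS 6 the edgeR value for cSCC compared with NS was 0.99 (adjusted p = 0.073). Both are near the DESeq2 values from all samples, and the part of NS 6 and AK 10 in the DESeq2 calls was not tested.

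Fosb (chr7:19302696-19310051, minus strand), the closest relative of Fos, did not pass the filter on low counts in any comparison. It lay between 0 and 41.7 CPM in NS, highest in NS 6 (74 counts) and next in NS 8 at 21.3 CPM (70 counts), and between 0 and 15.1 CPM in AK, highest in AK 10 (202 counts). The 4 cSCC held 6 counts in all, with 0 counts in cSCC 18 and 20, where 3 counts are 2.08 and 3.41 CPM. With no filter on low counts the log2 fold change in cSCC compared with NS was −4.06 ± 1.55 (SE; adjusted p = 0.0891), and no comparison passed.

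**Figure D2:**
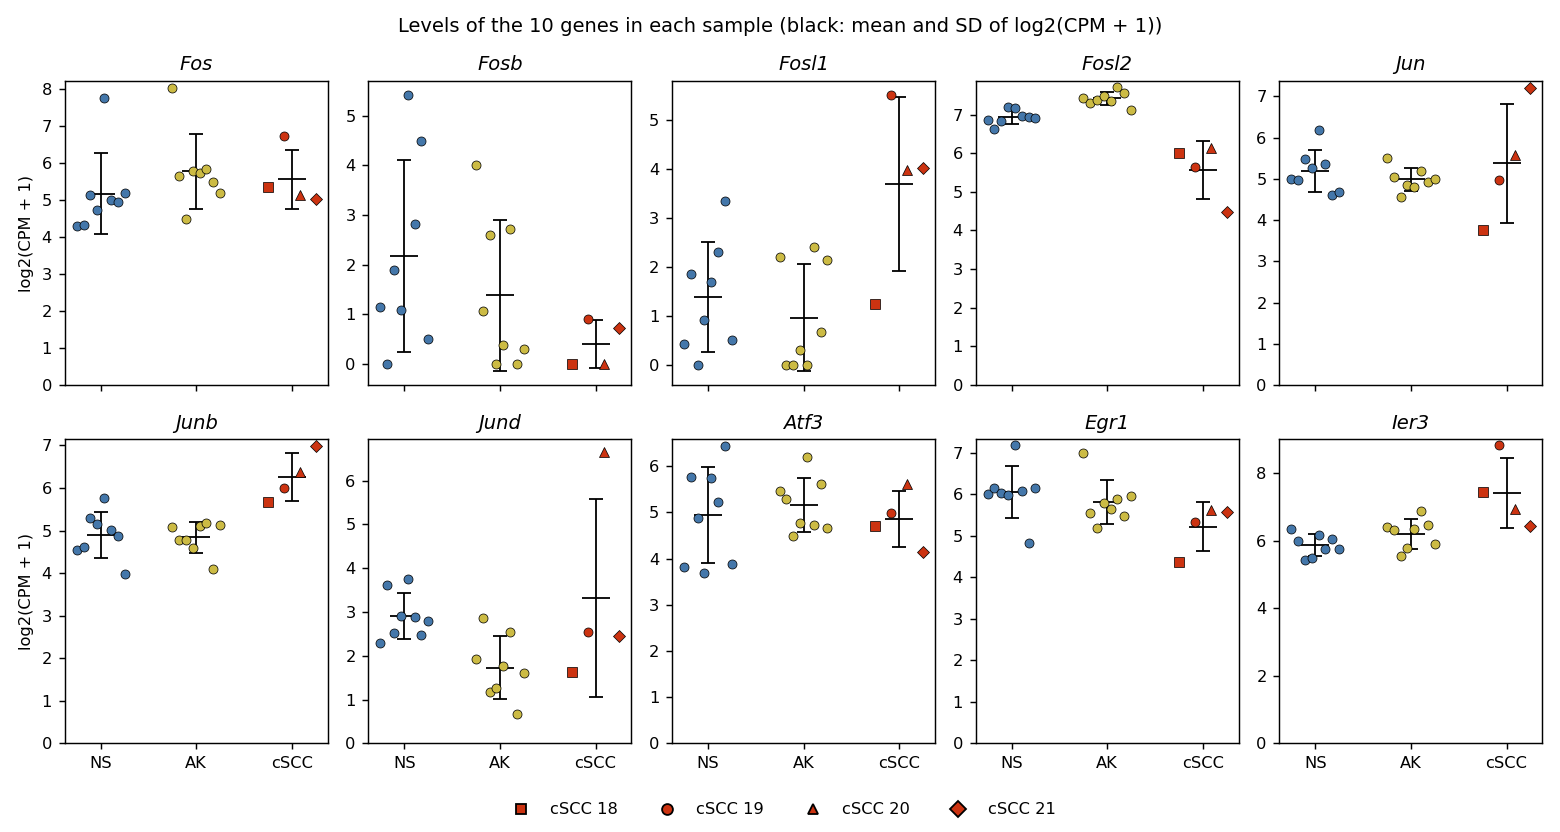
Level of each gene as log2(CPM + 1) (y axis) in the samples of NS, AK and cSCC (x axis), 1 point per sample, with the mean and SD in black and a marker shape for each cSCC. Fosl2 of all 4 cSCC is below NS and AK, Ier3 of all 4 is above NS, and single high points stand out for Fos (NS 6, AK 10, cSCC 19) and Jund (cSCC 20).

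Among the Jun genes, Junb (chr8:84974484-84978718, minus strand), whose protein often opposes Jun on shared targets, was upregulated in cSCC. It lay between 14.7 and 53.5 CPM in NS (median 29.8), between 16.2 and 35.5 CPM in AK (median 29.6) and at 50.0, 62.8, 81.9 and 126 CPM in cSCC 18, 19, 20 and 21. All 4 cSCC were above every AK, and 3 were above every NS, with NS 6 above cSCC 18. This was a log2 fold change of 1.46 ± 0.33 (SE) compared with NS (adjusted p = 0.00901) and 1.64 ± 0.28 compared with AK (adjusted p = 0.00248). Without cSCC 20 and 21 it was 0.91 compared with NS (adjusted p = 0.125), no longer called, and 1.06 compared with AK (adjusted p = 0.0251). The highest value was in cSCC 21, the sample with heart genes, and the next in cSCC 20, the sample with lung genes, and the part of that tissue in these values was not tested. Prdx2 overlaps Junb on the opposite strand.

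Jun (chr4:95049034-95052222, minus strand), the main partner of Fos proteins, was spread widely in cSCC. It lay between 23.4 and 72.1 CPM in NS (median 34.4) and between 22.7 and 44.2 CPM in AK (median 30.2), while cSCC 18, 19, 20 and 21 were at 12.5, 30.3, 46.6 and 146 CPM. One cSCC was thus below all NS and AK and 1 was above all of them. The log2 fold change was 0.74 (95% confidence interval −0.31 to 1.78; adjusted p = 0.311) compared with NS and 1.11 (0.14 to 2.09; adjusted p = 0.0866) compared with AK. Without cSCC 21, which held the heart genes, it was −0.30 (adjusted p = 0.674) and −0.068 (adjusted p = 0.918), and without cSCC 18 Jun was called compared with AK (1.31, adjusted p = 0.0162). It was also called compared with AK when at least 10 counts were asked of every sample (1.37, adjusted p = 0.0464). The noncoding gene Junos overlaps Jun on the opposite strand.

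Jund (chr8:70698949-70700616, plus strand), the Jun gene that is commonly the most constant, was carried by a single cSCC. It lay between 3.87 and 12.4 CPM in NS (median 6.17) and between 0.599 and 6.29 CPM in AK (median 2.23). In cSCC 18, 19, 20 and 21 it lay at 2.08, 4.83, 99.0 and 4.47 CPM, so that only cSCC 20, with the lung genes, was outside the range of NS on the high side. The call in cSCC compared with AK (3.31 ± 0.85, SE; adjusted p = 0.0132) was lost without cSCC 20 (0.59, adjusted p = 0.536). Compared with NS the value went from 2.02 (adjusted p = 0.0849) to −0.78 (adjusted p = 0.316). With cSCC 20 kept, Jund was called higher than in NS in the fit of all 20 samples (1.96, adjusted p = 0.0464), without cSCC 18 (2.36, adjusted p = 0.0323) and without cSCC 21 (2.39, adjusted p = 0.0491). All 3 other cSCC were within or below the range of NS. In AK, 6 of 8 samples were below all NS, with a log2 fold change of −1.27 ± 0.40 (SE) and an adjusted p of 0.0669. DESeq2 called this difference (−1.27, adjusted p = 0.0255), and it was called without AK 11 (−1.55, adjusted p = 0.0394). The counts behind it are few, 121 in all 8 AK and 209 in all 8 NS, and Gm11175 overlaps Jund on the opposite strand.

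Ier3 (chr17:35821684-35822923, plus strand), a stress-induced protein that modulates cell survival and ERK signaling, was upregulated in cSCC in both comparisons. It lay between 42.1 and 79.9 CPM in NS (median 57.8), between 45.4 and 116 CPM in AK (median 79.7) and at 174, 455, 122 and 86.0 CPM in cSCC 18, 19, 20 and 21. All 4 cSCC were above every NS, and 3 were above every AK. Its log2 fold change was 1.88 ± 0.35 (SE; adjusted p = 0.00414) compared with NS and 1.57 ± 0.36 (adjusted p = 0.00859) compared with AK. Its size rested in part on cSCC 19, without which it was 1.16 (adjusted p = 0.014) and 0.85 (adjusted p = 0.0455). Without cSCC 20 and 21 it was 2.45 (adjusted p = 0.00105) and 2.14 (adjusted p = 0.0022). In AK compared with NS, 4 of 8 samples lay above all NS and the log2 fold change was 0.35 (95% confidence interval −0.04 to 0.73; adjusted p = 0.252).

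Egr1, a zinc finger factor switched on together with Fos, had no call in any comparison. It lay between 27.4 and 144 CPM in NS (median 65.3), between 35.3 and 126 CPM in AK (median 51.7) and at 19.4, 39.1, 47.8 and 46.3 CPM in cSCC 18, 19, 20 and 21. All 4 cSCC were below 7 of the 8 NS, while NS 8 was lower than 3 of the cSCC. Its log2 fold change was −0.83 (95% confidence interval −1.63 to −0.02; adjusted p = 0.138) in cSCC compared with NS and −0.49 (−1.23 to 0.25; adjusted p = 0.319) compared with AK. Over 22 alternative fits, DESeq2 and voom among them, the value of Egr1 compared with NS ran from −1.23 to −0.60 (adjusted p from 0.0607 to 0.291). Compared with AK it ran from −0.92 to −0.24 (adjusted p from 0.165 to 0.579). Atf3 (chr1:191170296-191218039, minus strand), a stress-induced partner of Jun, lay between 11.9 and 86.2 CPM in NS, 21.4 and 72.4 CPM in AK and 16.7 and 47.8 CPM in cSCC. The groups overlapped throughout, and its log2 fold changes were 0.02 ± 0.38, −0.25 ± 0.53 and −0.24 ± 0.37 (SE) in AK compared with NS, in cSCC compared with NS and in cSCC compared with AK, with adjusted p of 0.983, 0.778 and 0.678. Gm24748 overlaps Atf3 on the opposite strand.

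**Figure D3:**
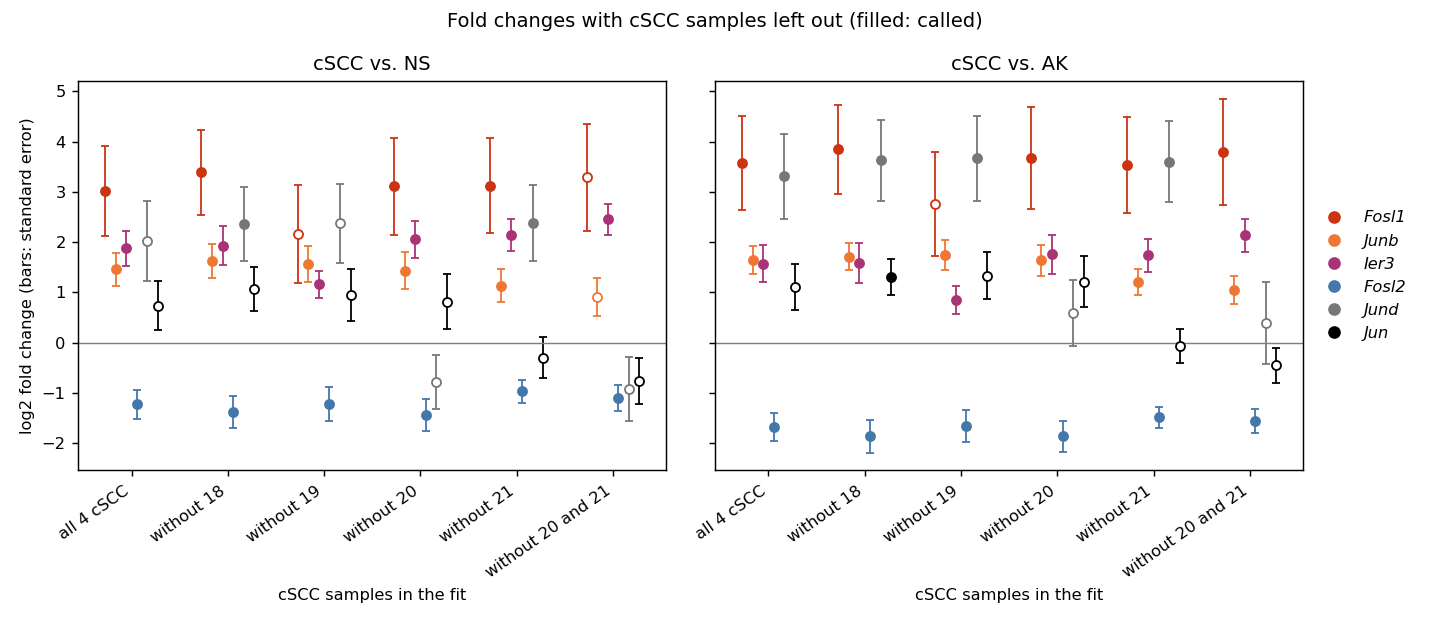
Log2 fold change with its standard error (y axis) of 6 genes in cSCC vs. NS and cSCC vs. AK, with all 4 cSCC and with the cSCC named on the x axis left out, where filled points are called. Fosl2 stays below 0 and called throughout, Jund falls from 3.31 to 0.59 compared with AK once cSCC 20 is left out, and Jun falls from 1.11 to −0.068 once cSCC 21 is left out.

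The make-up of each family was examined as the share of each gene in the summed CPM per kb of exon, which does not depend on scaling between samples. Fosl2 held on average 43.8% of the Fos family in the 8 NS (SD 14.3), 43.6% in the 8 AK (SD 13.9) and 17.1% in the 4 cSCC (SD 10.3). The mean share of Fosl1 was 3.90% in NS (SD 4.74), 1.52% in AK (SD 2.15) and 22.7% in cSCC (SD 13.6). In cSCC 19, 20 and 21 the Fosl1 share exceeded its share in every NS and AK, and in cSCC 18 it was 2.84%. Fos itself held 49.4%, 54.0% and 60.0% of the family in the 3 groups, and Fosb held 2.88%, 0.922% and 0.163%. The shares of Fos and Fosl2 depend on the division by exon length, 2352 bases for Fos and 9680 for Fosl2. In mean CPM, Fosl2 exceeded Fos in NS (122 against 51.1) and in AK (171 against 71.4). In cSCC the means were 50.6 CPM for Fosl2 and 52.8 CPM for Fos. Without cSCC 20 and 21 the mean shares of the other 2 cSCC were 66.2% for Fos, 17.1% for Fosl2, 16.7% for Fosl1 and 0.0974% for Fosb. The lowest Fosl2 shares of NS and AK were 13% in NS 6 and 13.4% in AK 10, where Fos was highest, so the ranges of the 3 groups overlapped.

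Within the Jun family, Junb held 45.2%, 51.9% and 58.8% in NS, AK and cSCC. Jun held 40.2%, 41.7% and 24.1%, and Jund held 14.6%, 6.42% and 17.2%. The shares in cSCC varied most, since Jund made up 54.2% of the family in cSCC 20 and between 2.59% and 7.30% in the others. With cSCC 20 and 21 left out the mean shares were 74.8% for Junb, 19.3% for Jun and 5.97% for Jund.

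**Figure D4:**
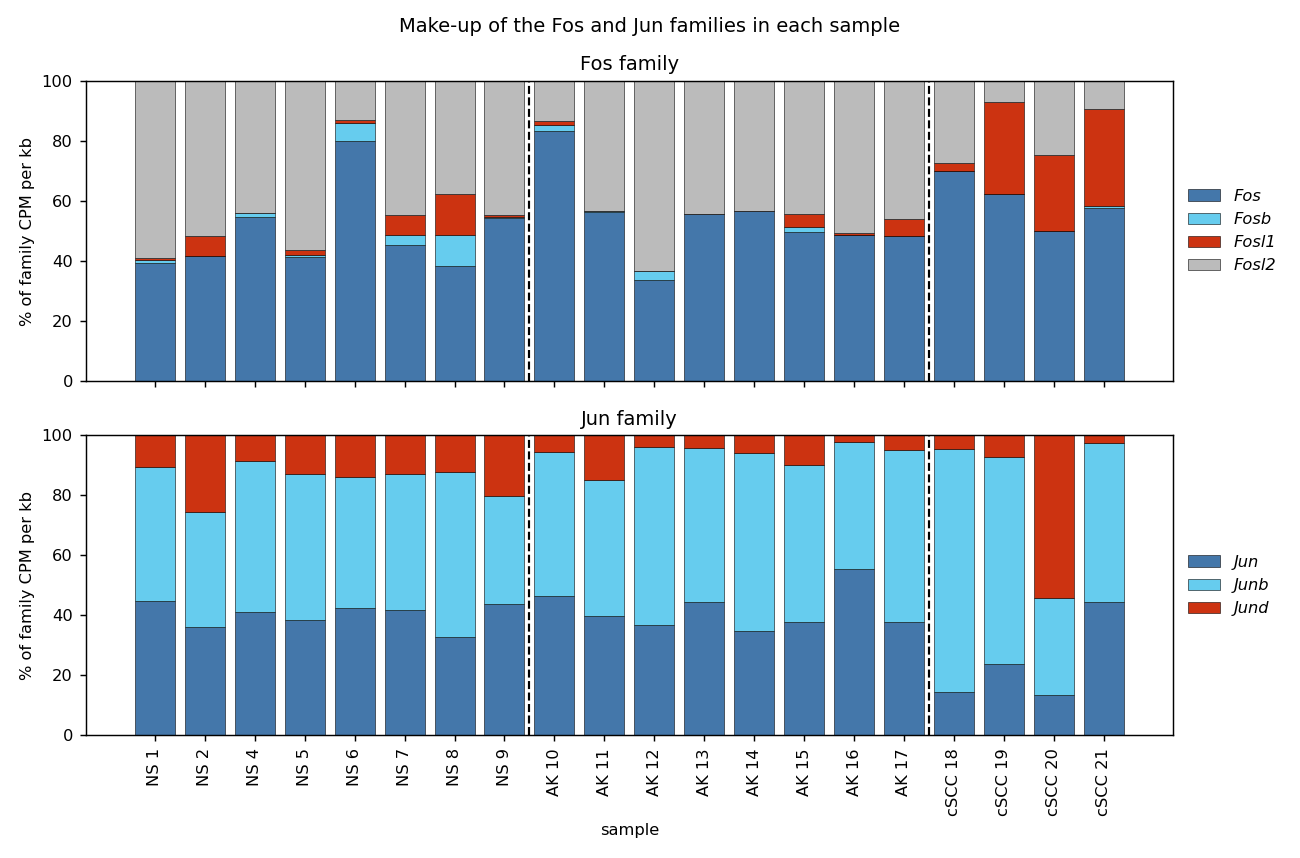
Share of each gene in the summed CPM per kb of its family (y axis, %) in every sample (x axis), with dashed lines between NS, AK and cSCC. Fosl1 takes 22.7% of the Fos family on average in cSCC and Fosl2 17.1%, and Jund takes 54.2% of the Jun family in cSCC 20.

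By level per kb of exon, Ier3 led in every group, with 52.1 ± 11.7 CPM per kb in NS, 66.7 ± 19.9 in AK and 185 ± 148 in cSCC (SD). Fos followed in NS (21.7 ± 28.3) and AK (30.4 ± 32.5), and Ier3 exceeded Fos in 7 of 8 samples of each. Without NS 6 the mean of Fos in NS was 11.8 ± 2.87 CPM per kb (SD, n = 7), below Atf3, Egr1, Fosl2 and Junb. Without AK 10 its mean in AK was 19 ± 5.30 CPM per kb (SD, n = 7), still next to Ier3. Atf3, Egr1, Junb, Fosl2 and Jun formed a middle range in NS, from 17.2 down to 11.9 CPM per kb. Neighbors in this range differed by less than the SD of their difference. Jun exceeded Jund in all 8 NS and all 8 AK. By the mean of all cSCC, Junb was next to Ier3 at 34.9 ± 14.5 CPM per kb. By this mean Fosl2 came ahead of Fosb alone at 5.23 ± 2.22 CPM per kb. The mean includes cSCC 20 and 21, which held lung or heart genes. In cSCC 18 and 19 Junb lay at 21.7 and 27.3 CPM per kb and Fos at 16.8 and 45.0, so Fos exceeded Junb in cSCC 19. Fosl2 lay at 6.53 and 5.04 CPM per kb in cSCC 18 and 19, ahead of Jund at 1.25 and 2.90 in both.

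Single samples held the highest level of several genes. NS 6 held the highest level of 6 of the 10 genes among NS and AK 10 and AK 15 held the highest of 4 each among AK. Among 32 other immediate early genes with a count, NS 6 was highest for 9 and NS 8 for 8 among NS, and AK 10 was highest for 9 among AK. NS 6 and AK 10 also had the lowest sums of the fibroblast markers in their group (1029 CPM in NS 6 and 1132 CPM in AK 10) and of the endothelial markers (31.0 and 38.3 CPM). AK 10 had the highest keratinocyte sum of AK (17237 CPM), and NS 6 had 17789 CPM, within the range of NS. The part of these differences in the Fos and Egr1 levels was not tested.

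In NS, where each sample is a separate mouse, the relation of Fos to each of the other 9 genes was computed over log2(CPM + 1). By Pearson's r the strongest were with Jun (r = 0.77, Spearman's rho = 0.40) and Fosb (r = 0.74, rho = 0.45), and by rho the strongest was with Egr1 (rho = 0.60, exact permutation p = 0.132; r = 0.65, exact permutation p = 0.179). The two-sided exact permutation p of r was 0.0574 for Jun and 0.0237 for Fosb, and 0.258 and 0.213 after adjustment over the 9 relations. The exact permutation p of rho was 0.327 and 0.267 for Jun and Fosb, and 0.69 for both and for Egr1 after adjustment. Without NS 1 and NS 6, the 2 samples farthest from the median of Fos, r fell to 0.007 with Jun and was 0.39 with Fosb. Without NS 6 alone r was 0.043 and 0.40, and without NS 1 alone it was 0.77 and 0.72, so both relations rested on NS 6. Without NS 9, Fosb (r = 0.79, adjusted exact permutation p = 0.0438) and Junb (r = 0.89, adjusted exact permutation p = 0.0339) passed. For Junb, r was 0.63 over all 8 NS (adjusted exact permutation p = 0.269) and −0.073 without NS 1 and NS 6.

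Genes with the most similar pattern were ranked by Spearman's rho over all 20 samples among 8975 genes with a mean of at least 10 CPM. Closest to Fosl2 were Ahcyl1 (rho = 0.92) and Atf1 (rho = 0.90), and closest to Junb were Arf1 (0.82) and Psmd3 (0.81). Closest to Fosl1 were Snrpc (0.85) and Nmt1 (0.84), to Ier3 Ciapin1 (0.85) and Ctnnbl1 (0.83), and to Egr1 Faah (0.87) and Dexi (0.86). Jun was closest to the immediate early gene Btg2 (0.81) and to Myh14 (0.81), Jund to Rnf187 (0.80) and Eml3 (0.76), and Fosb to Sfswap (0.82) and Klk5 (0.82). Atf3 was closest to the myeloid genes Trem2 (0.85) and Cyba (0.81), and Fos, with the lowest values, to Uhrf1bp1l (0.76) and Smurf2 (0.74). These are the best of many genes in samples that share groups and mice and differ in library depth, and are given as a description.

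The other genes of the pathway were read from lists of related genes. For the edgeR counts below, 2.26% of all genes tested were called higher and 2.38% lower in AK compared with NS. DESeq2 called 1049 and voom 1043 of the 11677 genes tested in that comparison. The edgeR shares were 11.7% and 7.65% in cSCC compared with NS and 16% and 8.34% in cSCC compared with AK. In the last comparison DESeq2 called 3369 and voom 1270 of 12032 genes. Without cSCC 20 and 21, 1558 of 12762 genes were called compared with NS and 1584 of 12567 compared with AK. The share of all genes at an unadjusted p under 0.05 was not computed, so no conclusion is drawn from list counts at that threshold. Of 12 tested partners of AP-1, which are further basic leucine zipper proteins, edgeR and DESeq2 called none in AK compared with NS, with 3 at an unadjusted p under 0.05, and voom called 2. Nfe2l2, the antioxidant response factor NRF2, was higher in cSCC compared with NS (log2 fold change 1.11, and 1.61 without cSCC 20 and 21). In cSCC compared with AK, 1 of 12 partners was lower, and 1 was higher and 1 lower without cSCC 20 and 21. The list medians of 0.03, 0.15 and 0.17 in the 3 comparisons were close to those of all genes (−0.04, 0.14 and 0.17).

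Among the other immediate early genes, 2 of 28 tested were higher and 1 was lower in AK compared with NS. Ptgs2, which encodes the inducible prostaglandin synthase COX-2, lay between 0 and 8.83 CPM in NS, 5.31 and 110 CPM in AK and 22.2 and 160 CPM in cSCC. Its log2 fold change was 3.69 ± 0.67 (SE; adjusted p = 0.0151) in AK and 4.76 ± 0.74 (adjusted p = 0.00167) in cSCC, both compared with NS. Zfp36, whose protein promotes decay of short-lived mRNAs, was also higher in AK (0.85). The Egr1 relative Egr2 was lower in AK (−1.13) and in cSCC (−2.42), and lay between 14 and 73.9 CPM in NS and 4.83 and 12.5 CPM in cSCC.

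Of these 28, 6 were higher and 3 lower in cSCC compared with NS. Besides Ptgs2 and Egr2 the largest changes were in Cyr61 (2.29), a secreted matrix protein, and in Socs3 (1.71), a feedback inhibitor of cytokine signaling. In cSCC compared with AK, 10 of 30 were higher and 3 lower, led by Cyr61 (2.54), Arc (2.49), Rhob (1.70) and Ctgf (1.49). The list medians were 0.01, 0.59 and 1.02. Without cSCC 20 and 21 the number called fell from 9 to 5 compared with NS and from 13 to 6 compared with AK. Arc (1.80, adjusted p = 0.262), Rhob (1.75, adjusted p = 0.0654) and Ctgf (1.08, adjusted p = 0.262) were then no longer called, while Ptgs2, Egr2, Cyr61 and Socs3 kept their calls.

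Of 23 tested MAP kinase pathway genes, edgeR called none in AK compared with NS (8 at an unadjusted p under 0.05), DESeq2 1 and voom 2, while 2 were higher and 6 lower in cSCC compared with NS, and 4 were lower in cSCC compared with AK. The p38 kinase kinase Map2k6 (−2.26) and the p38 kinase Mapk13 (−1.69) were lower compared with NS. The ternary complex factors, which act at the promoters of Fos and Egr1, split, with Elk3 higher (1.52) and Elk4 lower (−1.40) compared with NS. Elk4 was also lower compared with AK (−1.54), as were Mapk13 (−1.43), Map2k4 (−1.19) and Mapk8 (−1.14), the last 2 being members of the JNK cascade that phosphorylates Jun. With cSCC 20 and 21 left out the numbers called were 5 and 2, and Mapk13 (−1.17, adjusted p = 0.157, compared with NS and −0.91, adjusted p = 0.252, compared with AK) and Map2k4 (−0.89, adjusted p = 0.11, compared with AK) were no longer called. The medians of this list were −0.11, 0.04 and 0.32. Of the feedback inhibitors of ERK, 1 of 9 was called in cSCC compared with NS (Spry4, 2.97). Spry4 was not called without cSCC 20 and 21 (2.15, adjusted p = 0.261). With those samples left out, 1 other of 11 tested was called higher compared with NS, and 1 of 8 was called higher compared with AK. With all samples, none of 8 was called by edgeR in AK compared with NS (2 at an unadjusted p under 0.05; DESeq2 0, voom 0) or in cSCC compared with AK (1 at an unadjusted p under 0.05; DESeq2 1, voom 0). The medians were −0.10, 0.38 and 0.49.

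Known AP-1 target genes of keratinocytes and skin tumors include proteases and growth factors. In AK compared with NS, 3 of 26 were higher and 2 lower. Mmp13 (3.41) and Mmp10 (3.01), which encode collagenase-3 and stromelysin-2, and Vegfa (1.60) were upregulated, whereas the cornified envelope gene Lor (−1.71) and Hmox1 (−0.64) were downregulated. Of 27 tested in cSCC compared with NS, 14 were higher and Lor alone was lower, led by Lor (−6.35), Mmp13 (5.45), Mmp10 (5.33) and Il24 (4.94). Mmp13 lay between 0.352 and 47.2 CPM in NS, 11.5 and 506 CPM in AK and 112 and 1163 CPM in cSCC. Lor lay between 228 and 881 CPM in NS, 49.1 and 386 CPM in AK and 1.32 and 18.7 CPM in cSCC.

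Against AK, 9 of 27 target genes were higher in cSCC and Lor (−4.65) was lower, led by Hmga2 (5.43), Il24 (3.46) and Plaur (3.37), the urokinase receptor gene. Hmga2 lay at 3.47, 122, 27.3 and 3.31 CPM in cSCC 18, 19, 20 and 21. Its highest AK was at 2.996 CPM, close to cSCC 18 and 21. Il24 lay at 85.4, 836, 65.99 and 13.1 CPM in the same order. Its level in cSCC 21 was within the ranges of AK (9.58 to 32.5 CPM) and NS (up to 41.4 CPM). Plaur was above every AK in each cSCC. The values of these genes without cSCC 19 are not given here. The list medians were 0.63, 1.80 and 1.30, beside −0.04, 0.14 and 0.17 over all genes. Without cSCC 20 and 21, 13 genes of this list were called in each comparison with cSCC, against 15 and 10 with all samples. Markers of other cells moved with cSCC as well, and their part in these values was not tested. Of 8 endothelial markers, 7 were higher in cSCC compared with NS, summing to 127 to 698 CPM against 31.0 to 111 CPM. The sum was highest in cSCC 21, and none of the 8 was called without cSCC 20 and 21. Of 8 neutrophil markers, 3 were higher (Csf3r, Cxcr2 and Trem1). The 8 together summed to 2310 to 14784 CPM against 81.8 to 5796 CPM. In the highest samples the sum was mostly S100a8 and S100a9, which were not called compared with NS. They were at 6151 and 8418 CPM in cSCC 18 and at 3057 and 2662 CPM in NS 7. All 5 erythrocyte markers tested were higher, 5 of 8 skeletal muscle markers were lower, and of the 8 keratinocyte markers 3 were lower and 1 was higher. With these 2 samples left out the numbers called were 2 of 8 neutrophil markers, 6 of 7 erythrocyte markers, 1 of 8 skeletal muscle markers and 2 of 8 keratinocyte markers.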

How the data were processed

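Per its methods, the study used Trimmomatic for read trimming, HISAT2 for alignment (GRCm38) and StringTie for quantification. The submitters' processing notes instead list featureCounts 1.5.2, and the builds hg19 and mm9, so the counter is uncertain. The authors deposited raw counts per gene symbol, not normalized, for all 20 samples. The strand used in counting is not given in the sources used here. A count of 0 or of 1 or 2 is under the floor of 3 counts used here, which covers counting error only.

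From the counts, CPM with TMM factors were computed, and pairs of groups were compared with edgeR 4.0.16 (R 4.3.3; quasi-likelihood test, filterByExpr, Benjamini-Hochberg over all genes tested). Samples within groups all differed beyond sampling noise (62 pairs, smallest chi-square per degree of freedom 9.54). Since nothing in the labels ties tissues to mice, and AK share mice, p-values measure the spread between these samples. Exon lengths and coordinates are from GENCODE M21 (GRCm38). Correlations of Fos in the 8 NS used exact permutation over all 40320 pairings. With a sample left out, all pairings of the remaining NS were used. The rank correlations over all 20 samples were not tested.

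The genes and the lists were chosen with earlier results of these data known. Named genes were the 10 members, the called genes with the 4 largest changes of each list and comparison, and the 2 closest genes by rank correlation. Alternatives were DESeq2 1.42.0, limma 3.58.1 voom with sample weights, library size or upper quartile scaling, no filter, at least 10 counts in every sample, all samples in 1 fit, no fold limit, another pseudocount for the relations (0.1 rather than 1), and fits without each sample. The family shares were also computed without division by exon length. Chosen after seeing the data were leaving out cSCC 20 and 21, leaving out NS 6 and AK 10, removing haemoglobin genes, and leaving out NS 6 or AK 10 in the order of levels. A single gene of the lists of related genes is counted in its list but not reported here.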

Additional observations from a re-analysis of the deposited data

Results flagged for a closer look

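Of 30 groups of values (10 genes in 3 groups), 9 held a sample far from the others of its group, and NS 6 and AK 10 gave 6 of the 9. Chance flags about 1 in 20 groups of independent, normally distributed values, which these CPM need not be. Fos was such a case in each group, at 215 CPM in NS 6 with the next NS at 35.5 CPM, at 259 CPM in AK 10 with the next AK at 56.7 CPM, and at 106 CPM in cSCC 19 with the next cSCC at 39.6 CPM. Egr1 stood apart in the same NS and AK samples, at 144 CPM in NS 6 (next 70.4 CPM) and 126 CPM in AK 10 (next 60.6 CPM). Jun was at 72.1 CPM in NS 6 (next 43.4 CPM), and Fosb was at 15.1 CPM in AK 10 (next 5.59 CPM). Fosl1 was at 9.13 CPM in NS 8, with the next NS at 3.99 CPM. Jund was at 99.0 CPM in cSCC 20, with the next cSCC at 4.83 CPM.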

How the results depend on the processing

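Of the 10 genes, the number called in AK compared with NS was 0, then 2 with DESeq2 (Fos and Jund), 1 with no fold limit (Fosl2) and 0 to 1 with a sample left out. In cSCC compared with NS it was 4, then 2 without cSCC 20 and 21 and 3 to 5 with a sample left out. In cSCC compared with AK it was 5, and 4 to 6 with a sample left out. DESeq2 gave no adjusted p for Jund in either comparison with cSCC, and in cSCC compared with AK voom gave it 1.79 (adjusted p = 0.171), no longer called. Over all genes, 542, 2340 and 2935 were called in the 3 comparisons. The first of these numbers was 1049 with DESeq2, 1043 with voom, 9 with all 20 samples in 1 fit and 164 to 920 with a sample left out. The second was 1308 with voom, 1526 with at least 10 counts in every sample, 1558 without cSCC 20 and 21 and 1695 to 3181 with a sample left out. The third was 1270, 1731, 1584 and 1787 to 3994 in the same order. The share of higher genes among DEGs of AK moved from 48.7% to 26.8% with library size scaling and to 32.7% with upper quartile scaling.

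Several log2 fold changes turned sign in genes that were not called, and except where a sample is named the cause was not tested. In AK compared with NS, Atf3 was −0.065 with library size, −0.040 with upper quartile scaling and −0.053 with at least 10 counts, and Junb was 0.013 without NS 6 and AK 10. In cSCC compared with NS, Fos was −0.076 with library size, Jun −0.083 and Atf3 0.33 with voom, and Jun −0.76 and Jund −0.92 without cSCC 20 and 21. In cSCC compared with AK, Fos was 0.35 with DESeq2, 0.14 with voom and 0.11 without cSCC 20 and 21, Atf3 was 0.029 with voom, and Jun was −0.45 without cSCC 20 and 21. With a sample left out, Fos ran from −0.15 (AK 10) to 1.37 (NS 6) in AK compared with NS, from −0.48 to 0.99 in cSCC compared with NS and from −0.91 to 0.34 in cSCC compared with AK. In the same way Atf3 ran from −0.19 to 0.32 in AK and from −0.58 to 0.013 in cSCC, both compared with NS, and Junb ran from −0.22 to 0.041 in AK. Jun ran from −0.30 to 1.07 and Jund from −0.78 to 2.39 in cSCC compared with NS, and Jun from −0.068 to 1.33 compared with AK. The correlation of Fos in NS ran from −0.015 to 0.23 with Fosl1, −0.27 to 0.90 with Jund, −0.15 to 0.95 with Egr1 and −0.65 to 0.47 with Ier3, with its lowest value without NS 6 in each.

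No paired analysis was possible because the groups share no replicate numbers and the labels do not tie tissues to mice. With 4 cSCC, of which 2 hold lung or heart genes, and 3 counts reaching 3.78 CPM in the shallowest sample, small changes of Fosb, Fosl1 and Jund were not detectable at this depth.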
